A study of Mus musculus with 6 samples.

Results

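The genes described here are 36 genes of glycolysis and of the cellular response to low oxygen, taken by their symbols from a gene table of 25239 symbols. No cutoff on measured values was used, but this list and those further below were chosen with earlier results of these data known. All 36 were in the table and passed the filter on low counts. By role, 23 act in glucose uptake, the glycolytic steps or the handling of pyruvate and lactate. Another 3 (Hif1a, Egln1 and Egln3) act in oxygen sensing, and 10 are targets of the hypoxia-inducible factor (HIF) outside glycolysis. They were measured in 3 libraries of senescent and 3 libraries of quiescent mouse primary pulmonary fibroblasts by sequencing of total RNA depleted of ribosomal RNA. Senescence was induced, per the labels, with 16 hours of RO3306, an inhibitor of the mitotic kinase Cdk1, followed by 48 hours of Nutlin 3a, which keeps the ubiquitin ligase Mdm2 from binding p53, and by 100 nM of BI-2536, an inhibitor of the mitotic kinase Plk1 meant to remove dividing cells, over 12 days in all. Quiescent samples carry this treatment text as well, and the sources used here do not say how those cells were brought to quiescence. The labels give 1 culture condition for both groups, 5% oxygen with 10% serum, so the groups do not differ in the stated oxygen level. Mouse strain, age and sex are not given in the labels, nor is it stated whether the 3 samples of a group are separate cultures, so p-values cover only the variation among these 6 samples, part or all of which may be technical. In such bulk RNA, fewer cells of a type and less RNA per cell cannot be told apart.

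Glycolysis splits glucose into pyruvate, and lactate dehydrogenase with the monocarboxylate transporters disposes of the pyruvate as lactate. Several steps are served by paralogs with their own tissue distribution and kinetics, such as the muscle, liver and platelet phosphofructokinases. HIF is a pair of a regulated alpha subunit and a constant beta subunit (Arnt). With oxygen present, the EGLN prolyl hydroxylases mark HIF-1α for destruction through the VHL ubiquitin ligase, and at low oxygen HIF binds the core letters ACGTG or GCGTG near genes of glycolysis, angiogenesis, mitophagy and collagen modification.

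The glycolysis and hypoxia genes were mostly higher in the senescent libraries. In edgeR's quasi-likelihood test with Benjamini-Hochberg adjustment over all tested genes, 30 of the 36 rose and 2 fell at an adjusted p under 0.05, where 36.7% of the 14065 tested genes rose and 37.8% fell. With library totals in place of TMM scaling, 27 of the 36 rose and 5 fell, beside 2952 and 7435 of all tested genes (5158 and 5316 with TMM). The median log2 fold change of the 36 was 1.30, beside -0.02 over all tested genes. Among the genes that rose, 24 had estimates above 2-fold, beside 11.0% of all tested genes, and 0 fell by that much, beside 14.3%. Levels are given as CPM, counts scaled to the TMM-adjusted library total. In 34 of the 36 genes the CPM of the 3 senescent libraries did not overlap those of the 3 quiescent ones, which was so for 78.3% of all tested genes. In 30 of them all senescent libraries were above all quiescent ones (38.4% of tested genes) and in 4 they were below (39.9%). Together the 36 genes held 1.17% to 1.24% of the counts outside the ribosomal rows in senescent libraries and 0.574% to 0.610% in quiescent libraries. Read by role, 19 of the 23 glycolytic genes rose and 1 fell, with a median of 1.35. All 3 member genes of oxygen sensing rose, with a median of 1.16. Of the 10 other HIF targets, 8 rose and 1 fell, with a median of 0.95. Rises and exceptions lay in both kinds of gene, the exceptions being Pfkm, Aldoc, Pfkfb4 and Slc16a1 among the glycolytic genes, and Car9 and Adm among the other targets.

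**Figure D1:**
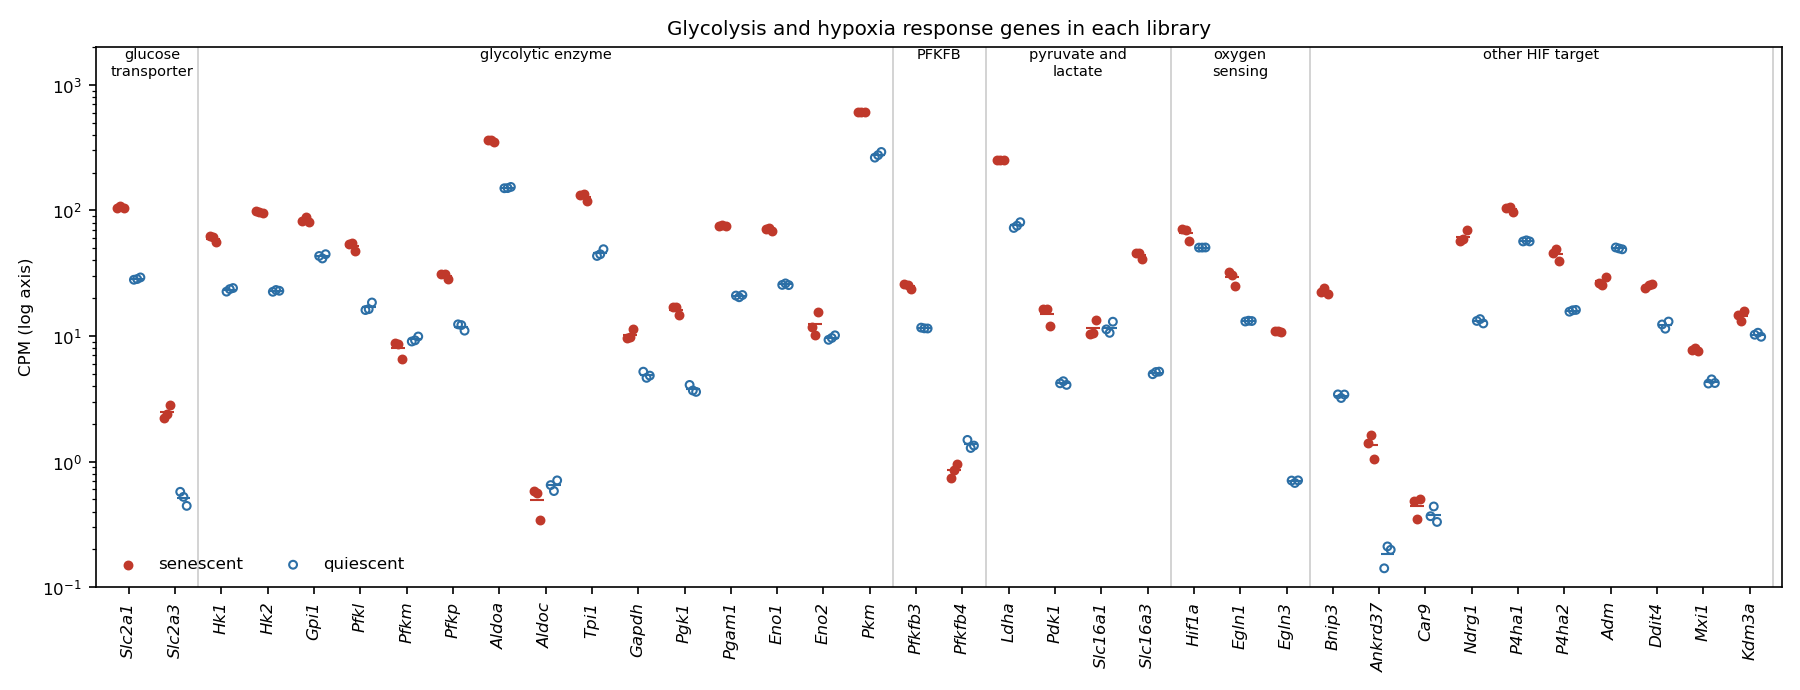
CPM (log axis) of each of the 36 genes in each library, filled points for the 3 senescent and open points for the 3 quiescent libraries, with a line at each group's mean. Senescent points lie above quiescent ones for 30 genes called higher, while the order is turned for Pfkm, Aldoc, Pfkfb4 and Adm.

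Total gene counts were 93736593 to 109706025 per library, of which 18219831 to 21386546 lay outside Rn45s, Lars2 and Mir6236. Of 8 fibroblast markers, 3 rose and 4 fell, Thy1 rising most (log2 fold change 2.72) and Col3a1 falling most (-1.95). Their sum was 2124 to 2585 CPM in senescent and 3703 to 3797 CPM in quiescent libraries. Col3a1 averaged 348 CPM in senescent and 1342 CPM in quiescent libraries. Col1a1, the marker that did not pass the test, averaged 857 CPM in senescent and 967 CPM in quiescent libraries. Of 7 macrophage markers 4 passed the filter and all 4 rose, with a summed level of 10.7 to 14.1 CPM in senescent and 3.90 to 4.15 CPM in quiescent libraries, while Ptprc, Adgre1 and Itgam were under the filter. Of the other markers, 1 of 7 epithelial genes passed the filter (summed 0.536 to 0.778 CPM in senescent and 0.320 to 0.396 CPM in quiescent libraries), with Nkx2-1 at 0 in every library. Of 6 endothelial genes 4 passed, 1 rose and 1 fell, with sums of 3.43 to 5.00 CPM in senescent and 5.14 to 5.67 CPM in quiescent libraries. Of 6 smooth muscle and pericyte genes 5 rose (65.5 to 106 CPM summed in senescent and 24.3 to 29.1 CPM in quiescent libraries). Their part in the results below was not tested. Senescent replicate 3 correlated least with the other libraries, with a median r of 0.992 with its own group on log2 CPM, where the other libraries reached 0.993 to 0.996. Without it, 30 of the 36 genes rose and 2 fell, beside 5331 and 5416 of all tested genes.

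HIF's core letters are shown here in the promoter windows of 8 members. Egln3, Slc16a3, Ankrd37 and Bnip3 had the steepest rises of the 36, at 15.6-fold, 8.68-fold, 7.26-fold and 6.77-fold. Pgk1 had the steepest rise among the member glycolytic enzymes, at 4.28-fold, with Hk2 nearly equal at 4.26-fold. Adm and Pfkfb4 fell, and Car9 is the member HIF target outside glycolysis that did not pass the test. Each window covers 250 bases before to 50 bases after the RefSeq transcription start on GRCm38.p6, the assembly that mm10 names, read along the gene. The capitals mark ACGTG and GCGTG on either strand, so CACGT and CACGC are the same letters read on the other strand, and CACGTG holds ACGTG on both. The windows lie at chr12:54203825-54204124 (minus strand) for Egln3, chr11:120948817-120949116 (plus) for Slc16a3, chr8:45999801-46000100 (minus) for Ankrd37, chr7:138909457-138909756 (minus) for Bnip3, chrX:106186850-106187149 (plus) for Pgk1, chr7:110627407-110627706 (plus) for Adm, chr9:108991652-108991951 (plus) for Pfkfb4 and chr4:43506776-43507075 (plus) for Car9.
Egln3: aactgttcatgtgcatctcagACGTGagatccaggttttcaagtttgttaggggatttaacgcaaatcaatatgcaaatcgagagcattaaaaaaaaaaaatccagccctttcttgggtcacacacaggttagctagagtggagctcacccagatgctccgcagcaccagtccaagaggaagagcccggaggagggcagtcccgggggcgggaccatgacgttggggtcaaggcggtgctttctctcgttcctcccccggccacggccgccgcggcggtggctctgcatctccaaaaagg
Slc16a3: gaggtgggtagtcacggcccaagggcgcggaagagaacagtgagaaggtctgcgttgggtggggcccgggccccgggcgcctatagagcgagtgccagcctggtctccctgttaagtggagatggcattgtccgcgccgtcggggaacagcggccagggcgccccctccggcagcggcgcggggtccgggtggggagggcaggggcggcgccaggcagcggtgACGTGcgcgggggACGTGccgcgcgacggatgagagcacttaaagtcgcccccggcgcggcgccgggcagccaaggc
Ankrd37: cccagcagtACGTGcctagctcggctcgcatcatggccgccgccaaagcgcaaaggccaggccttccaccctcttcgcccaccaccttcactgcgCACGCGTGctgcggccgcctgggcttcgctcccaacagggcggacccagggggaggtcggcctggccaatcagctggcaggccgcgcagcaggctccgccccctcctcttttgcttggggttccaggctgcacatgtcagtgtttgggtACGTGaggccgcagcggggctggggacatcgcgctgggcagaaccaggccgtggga
Bnip3: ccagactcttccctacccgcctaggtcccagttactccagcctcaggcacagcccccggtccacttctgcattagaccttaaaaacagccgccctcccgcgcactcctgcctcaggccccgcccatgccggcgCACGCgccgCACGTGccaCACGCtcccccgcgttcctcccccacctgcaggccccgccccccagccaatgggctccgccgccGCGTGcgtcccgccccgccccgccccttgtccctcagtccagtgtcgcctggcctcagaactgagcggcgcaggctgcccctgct
Pgk1: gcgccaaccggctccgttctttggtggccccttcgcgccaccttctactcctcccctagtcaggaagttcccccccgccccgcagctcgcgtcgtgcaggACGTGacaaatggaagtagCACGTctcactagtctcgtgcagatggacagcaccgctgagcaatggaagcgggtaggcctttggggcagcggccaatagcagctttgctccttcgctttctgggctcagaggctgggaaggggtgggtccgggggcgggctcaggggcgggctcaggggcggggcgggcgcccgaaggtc
Adm: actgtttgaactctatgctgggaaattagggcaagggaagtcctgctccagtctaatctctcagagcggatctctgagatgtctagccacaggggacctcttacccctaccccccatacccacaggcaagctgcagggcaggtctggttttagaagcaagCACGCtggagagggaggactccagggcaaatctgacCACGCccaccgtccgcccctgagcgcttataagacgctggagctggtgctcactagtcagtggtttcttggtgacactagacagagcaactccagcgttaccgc
Pfkfb4: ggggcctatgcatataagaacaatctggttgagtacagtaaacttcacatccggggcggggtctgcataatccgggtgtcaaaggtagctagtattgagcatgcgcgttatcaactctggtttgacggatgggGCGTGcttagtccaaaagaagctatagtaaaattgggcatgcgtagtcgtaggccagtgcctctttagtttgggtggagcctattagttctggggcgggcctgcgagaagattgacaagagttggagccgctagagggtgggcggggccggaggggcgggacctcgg
Car9: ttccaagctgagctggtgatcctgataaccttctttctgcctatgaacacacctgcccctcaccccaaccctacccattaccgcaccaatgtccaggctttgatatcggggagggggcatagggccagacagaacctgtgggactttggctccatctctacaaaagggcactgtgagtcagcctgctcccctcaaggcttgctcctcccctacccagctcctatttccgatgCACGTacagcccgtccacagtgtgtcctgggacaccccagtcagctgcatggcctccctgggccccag
ACGTG stood in the windows of Egln3, Slc16a3, Ankrd37, Bnip3 and Pgk1, and also in that of Car9, whereas the windows of Adm and Pfkfb4 held only GCGTG. RefSeq gave windows for 34 of the 36 members (Slc2a3 and Ndrg1 had none in the table). Either motif stood in at least 1 window of 31 of these 34 genes (91.2%), beside 66.6% of the tested genes with a window and 46.7% of all genes with one. A gene can have several windows, 51 for the 34 members and 14078 for 11053 tested genes. Counted by window, either motif stood in 78.4% of member windows and 60.7% of those of tested genes. ACGTG alone stood in 24 of the 34 (70.6%), beside 29.1% of tested genes and 21.8% of all. Among the members that rose, 20 of 28 held ACGTG, and so did all 4 that did not pass the test. The windows differed in base composition, with a median GC content of 63.0% for the members and 60.7% for tested genes, and both motifs hold a CG. A match of letters is a description of the window and not a binding site.

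Both glucose transporter genes among the members rose, and the transporters outside the members are counted in a list further below. Slc2a1, the gene of the basal glucose transporter GLUT1 (chromosome 4, 119108711 to 119137983, GENCODE M21 on GRCm38), measured 105, 109 and 104 CPM in senescent libraries, against 28.0, 28.4 and 29.2 CPM in quiescent libraries. The 3 senescent values lay above all quiescent ones, and the log2 fold change was 1.89 ± 0.047 (SE) (edgeR adjusted p = 5.69e-11). Slc2a3, which encodes the high-affinity transporter GLUT3 of neurons, had 2.22, 2.40 and 2.84 CPM in senescent libraries, against 0.574, 0.523 and 0.444 CPM in quiescent libraries, a log2 fold change of 2.27 ± 0.14 (SE). On counts per kilobase of merged exons, Slc2a3 still made up only 1.13% ± 0.16 of the pair in senescent and 0.86% ± 0.13 in quiescent libraries (SD, n = 3 per group), so GLUT1 transcripts were nearly the whole of the pair in both states. Errors after ± are SD over 3 libraries unless named as standard errors (SE).

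The first steps differed by paralog. Hk1 and Hk2 encode hexokinases that bind mitochondria and trap glucose as glucose 6-phosphate, Hk1 as the housekeeping form and Hk2 as the inducible one. Hk2 measured 99.3, 97.4 and 95.4 CPM in senescent libraries, against 22.5, 23.2 and 22.9 CPM in quiescent libraries (log2 fold change 2.09 ± 0.046 SE). Hk1 reached 62.0, 61.0 and 55.9 CPM in senescent libraries, against 22.5, 23.6 and 24.1 CPM in quiescent libraries (log2 fold change 1.35 ± 0.054 SE). Both rose without overlap, and the counts of the 2 genes, near equal in quiescence, parted. The log2 ratio of Hk2 to Hk1 counts was 0.71 ± 0.05 in senescent and -0.03 ± 0.04 in quiescent libraries, a difference of 0.74. Per kilobase, Hk2 made up 70.0% ± 0.79 of the pair in senescent and 58.3% ± 0.60 in quiescent libraries, but with the longest transcript as the length 55.9% and 43.1%. Gpi1, the glucose 6-phosphate isomerase gene, rose by 0.95 on the log2 scale.

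Phosphofructokinase, the committed step, showed the widest split among the member genes of glycolytic enzymes. Pfkl, the liver form, measured 54.4, 54.6 and 47.1 CPM in senescent libraries, against 16.1, 16.3 and 18.5 CPM in quiescent libraries, and rose by 1.62 on the log2 scale (± 0.073 SE). Pfkp, the platelet form, measured 31.0, 31.4 and 28.4 CPM against 12.4, 12.2 and 11.0 CPM in quiescent libraries and rose by 1.35. Pfkm, the muscle form, stayed at 8.75, 8.69 and 6.60 CPM in senescent libraries, against 9.03, 9.23 and 9.90 CPM in quiescent libraries. All 3 senescent values of Pfkm lay below the quiescent ones, but the log2 fold change of -0.23 ± 0.10 (SE) did not pass the test (edgeR adjusted p = 0.0597). It did pass as lower without senescent replicate 1 (-0.29, edgeR adjusted p = 0.0358) or 2 (-0.29, adjusted p = 0.0348), and under library totals and upper quartile scaling. Per kilobase, Pfkm made up 19.2% ± 1.3 of the 3 forms in senescent and 45.1% ± 0.2 in quiescent libraries, and Pfkl 62.6% ± 0.6 and 40.7% ± 1.3 in the same order. The form with the highest level per kilobase was thus Pfkl in senescent and Pfkm in quiescent libraries, an order that holds only on merged exon length: with the longest transcript as the length, Pfkl led in both, with 69.0% in senescent and 49.5% in quiescent libraries. Of 6 skeletal muscle markers Myod1, Myog and Ckm were under the filter, 2 rose and 1 fell, with sums of 12.8 to 20.96 CPM in senescent and 7.42 to 7.97 CPM in quiescent libraries, and their part in the values of Pfkm was not tested. Exons of Pfkp share 748 bases with Pitrm1 on the other strand (17.8 CPM in senescent and 15.4 CPM in quiescent libraries), and whether counting used strand is unknown, so part of the Pfkp counts is uncertain. Exons of further members overlap genes absent from the gene table, among them Gpi1 (741 bases), Pkm (767 bases, same strand) and Ndrg1 (419 bases). Part of their counts is uncertain as well.

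**Figure D2:**
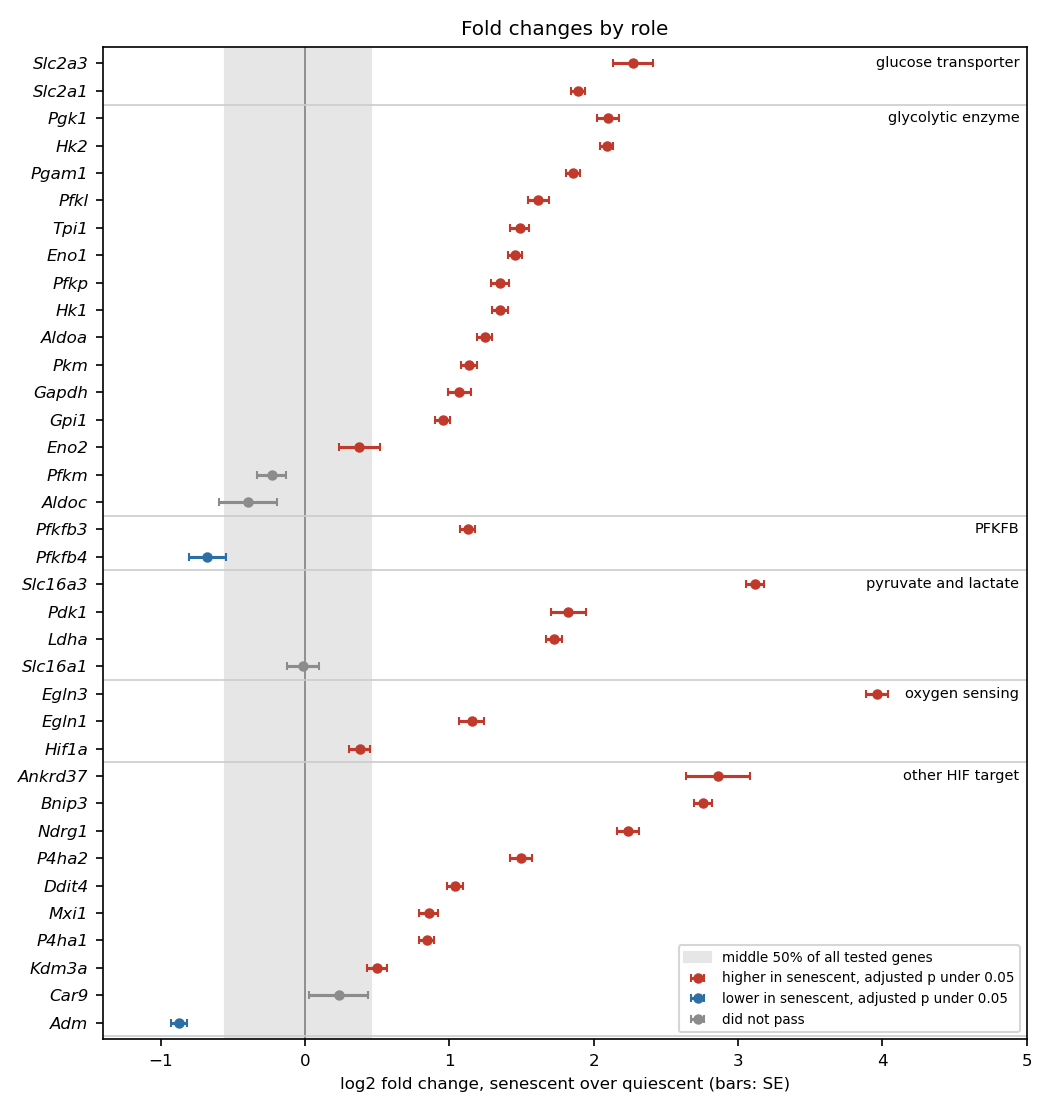
Log2 fold change, senescent over quiescent, of the 36 genes grouped by role, with bars of 1 standard error and colours for higher, lower and not passing at an adjusted p under 0.05 in edgeR. The grey band, -0.55 to 0.46, holds the middle 50% of all tested genes, and the genes called higher lie to its right except Eno2 and Hif1a.

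The member genes of the fructose 2,6-bisphosphate enzymes, which set the activity of phosphofructokinase, went in opposite directions. Pfkfb3, whose enzyme strongly favours synthesis of that activator, measured 26.1, 25.7 and 23.7 CPM in senescent libraries, against 11.6, 11.5 and 11.5 CPM in quiescent libraries (log2 fold change 1.13 ± 0.052 SE). Pfkfb4, a HIF target in other cells, measured 0.741, 0.861 and 0.962 CPM in senescent libraries, against 1.49, 1.28 and 1.34 CPM in quiescent libraries. The groups did not overlap, and Pfkfb4 fell by 0.68 on the log2 scale (± 0.13 SE, edgeR adjusted p = 5.59e-04). The log2 ratio of Pfkfb4 to Pfkfb3 counts was -4.88 ± 0.26 in senescent and -3.07 ± 0.10 in quiescent libraries.

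Along the lower part of the pathway the widespread aldolase and enolase had higher fold changes than the paralogs of brain and neurons. Aldoa, the ubiquitous aldolase, measured 363, 364 and 349 CPM in senescent libraries, against 150, 150 and 154 CPM in quiescent libraries (log2 fold change 1.24 ± 0.049 SE). Aldoc, the brain aldolase, had 58, 50 and 35 counts in senescent and 69, 69 and 75 counts in quiescent libraries. Its CPM did not overlap between the groups, yet its log2 fold change of -0.39 ± 0.20 (SE) did not pass (edgeR adjusted p = 0.0972), and it passed as lower under upper quartile scaling (-0.49) and library totals (-0.69). The log2 ratio of Aldoc to Aldoa counts was -9.53 ± 0.39 in senescent and -7.87 ± 0.13 in quiescent libraries.

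Both enolase genes among the members passed as higher, unequally, while Eno3, the muscle enolase gene outside the members, fell (-1.89). Eno1, the ubiquitous enolase gene, measured 70.7, 72.2 and 68.5 CPM in senescent libraries, against 25.5, 26.2 and 25.4 CPM in quiescent libraries (log2 fold change 1.45 ± 0.046 SE). Eno2, the neuronal enolase, measured 11.8, 10.2 and 15.7 CPM in senescent libraries, against 9.31, 9.64 and 10.1 CPM in quiescent libraries, with senescent replicate 3 highest. Eno2 passed as higher with a log2 fold change of 0.38 ± 0.14 SE (edgeR adjusted p = 0.0433), a call lost without any 1 of the quiescent replicates (adjusted p 0.0682 to 0.103 in edgeR), with limma-voom, without the filter, and under upper quartile or library total scaling. Relative to Eno1 its counts stood lower, with a log2 ratio of -2.51 ± 0.35 in senescent and -1.41 ± 0.07 in quiescent libraries. Eno1b, a near-identical retrogene of Eno1 over 1302 coding bases, held 61.7 ± 1.96 CPM in senescent and 23.2 ± 0.405 CPM in quiescent libraries, so the split of reads between the 2 is uncertain. With the counts of both added, an alternative chosen after the values were seen, the difference in the log2 ratio was -1.08, beside -1.10 for Eno1 alone. Of 6 neuron markers, Rbfox3 and Stmn2 were under the filter, 3 fell and Snap25 rose, and their summed level was 1.95 to 3.34 CPM in senescent and 8.67 to 9.12 CPM in quiescent libraries. Whether they bear on Eno2 and Aldoc was not tested.

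The member genes of the remaining steps all rose. Tpi1 (triosephosphate isomerase) rose by 1.49 on the log2 scale, Pgam1 (phosphoglycerate mutase) by 1.86 and Pkm (pyruvate kinase) by 1.14. Pkm had the most CPM of the set, with 608, 613 and 608 in senescent libraries, against 263, 275 and 292 in quiescent libraries, and its groups were far apart. The gene table does not divide the M1 and M2 forms of Pkm, which differ by an exchanged exon, so a choice between them is not visible here. Pgk1, the phosphoglycerate kinase gene on the X chromosome, measured 16.9, 16.9 and 14.7 CPM in senescent libraries, against 4.07, 3.68 and 3.59 CPM in quiescent libraries, a log2 fold change of 2.10 ± 0.077 (SE). Gapdh, often used as a reference gene, measured 9.58, 9.86 and 11.3 CPM in senescent libraries, against 5.19, 4.64 and 4.83 CPM in quiescent libraries, and rose by 1.07 (± 0.078 SE).

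Levels per kilobase did not follow the order of the pathway. In senescent libraries Aldoa had the highest level of the 36 genes (123 ± 2.8 CPM per kilobase) and Pkm followed (122 ± 0.5), with overlapping libraries. In quiescent libraries Pkm stood at 55.3 ± 2.9 and Aldoa at 52.0 ± 0.7 CPM per kilobase, again with overlapping libraries. With the longest transcript as the length Pkm led in both groups, at 251 CPM per kilobase in senescent and 114 in quiescent libraries, beside 232 and 97.7 for Aldoa. Ldha came next among the glycolytic genes with 76.1 ± 0.5 and 23.0 ± 1.2 CPM per kilobase, then Tpi1 with 46.6 ± 3.3 and 16.6 ± 1.1, and Pgam1 with 38.1 ± 0.3 and 10.5 ± 0.2, each in senescent and quiescent libraries in that order. Gapdh stood far below its neighbours in the pathway, at 2.48 ± 0.23 CPM per kilobase in senescent and 1.18 ± 0.07 in quiescent libraries, and so did Pgk1, at 7.21 ± 0.57 and 1.68 ± 0.12. The coding sequence of Gapdh matches 81 other GENCODE genes at 95% identity or more over at least 100 bases, of which 76 are pseudogenes, and that of Pgk1 matches 4, all pseudogenes. Ldha matches 5 such genes, Bnip3 4, Eno1 3, and Gpi1, Tpi1, Pgam1 and Pkm 1 each. How reads with several positions were handled is unknown, so the levels of all these genes are uncertain.

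Among the paralog pairs compared here, the steepest contrast lay in pyruvate handling. Ldha, the lactate dehydrogenase A gene, measured 251, 254 and 250 CPM in senescent libraries, against 72.5, 75.4 and 80.5 CPM in quiescent libraries (log2 fold change 1.73 ± 0.054 SE). Pdk1, whose kinase shuts pyruvate dehydrogenase, measured 16.5, 16.4 and 11.9 CPM in senescent libraries, against 4.20, 4.36 and 4.08 CPM in quiescent libraries, with senescent replicate 3 lowest of its group and still above every quiescent library. It rose by 1.83 (± 0.12 SE).

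The lactate exporter gene Slc16a3 (MCT4, chromosome 11, 120948480 to 120960868) measured 46.0, 45.7 and 41.3 CPM in senescent libraries, against 4.96, 5.16 and 5.20 CPM in quiescent libraries. It rose 8.68-fold (log2 fold change 3.12 ± 0.060 SE, edgeR adjusted p = 1.98e-11). Slc16a1, which encodes the high-affinity transporter MCT1 that carries lactate either way, measured 10.4, 10.5 and 13.5 CPM in senescent libraries, against 11.3, 10.6 and 13.0 CPM in quiescent libraries. These groups overlapped, and the log2 fold change of -0.015 ± 0.11 (SE) did not pass (edgeR adjusted p = 0.911), though it passed as lower under library totals (-0.31). Per kilobase, Slc16a3 made up 76.2% ± 3.8 of the pair in senescent and 26.9% ± 1.9 in quiescent libraries, so the more abundant transporter transcript was MCT4 in the first and MCT1 in the second.

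**Figure D3:**
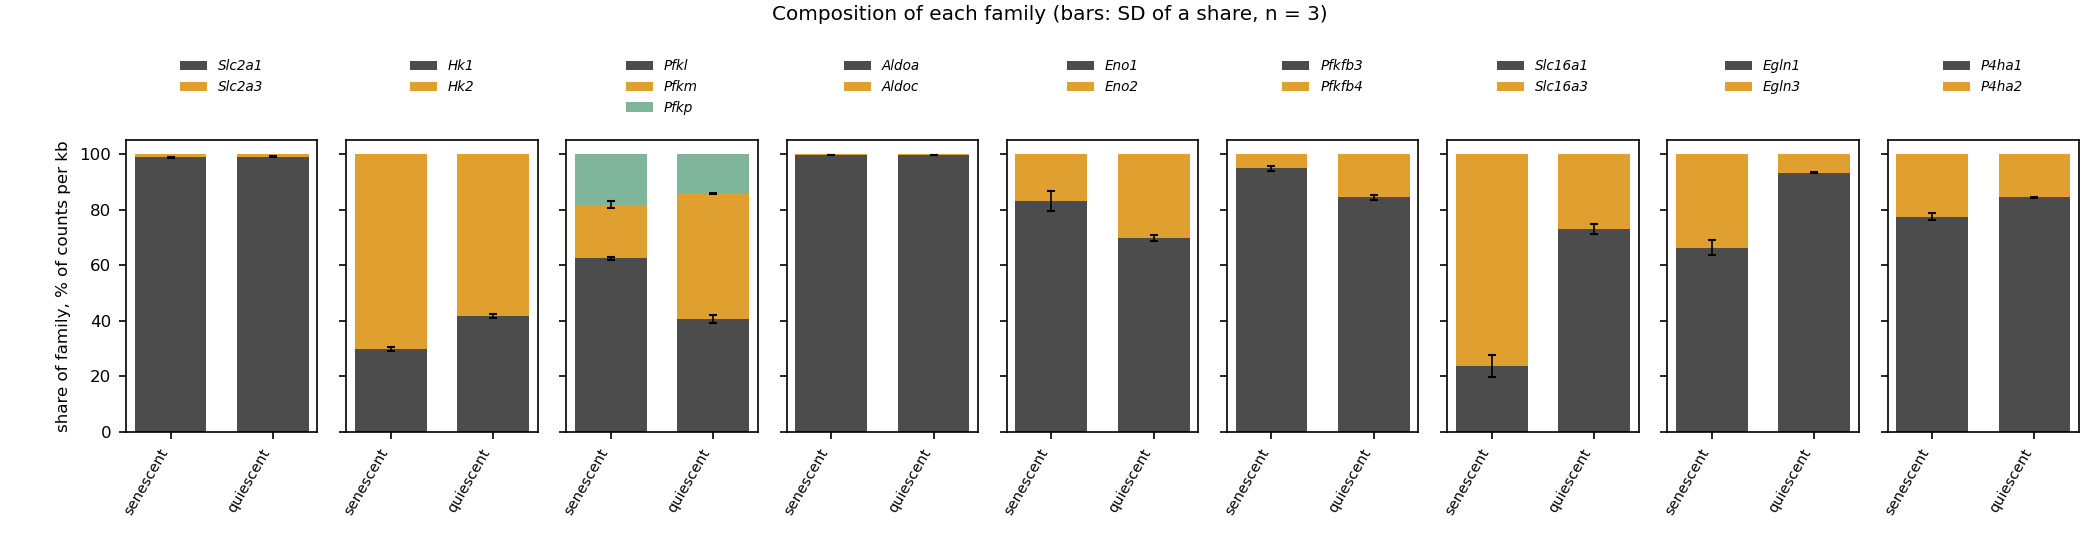
Share of each member gene among the members of its family, from counts per kilobase of merged exons, senescent left of quiescent. Paralogs outside the members, such as Egln2 and Eno3, are not counted in the shares. Bars are means of 3 libraries, with SD bars on the lowest component (and on Pfkm among the phosphofructokinases). Slc16a3 takes 76.2% of its pair in senescent and 26.9% in quiescent libraries, Egln3 33.6% and 6.7%, and Pfkm 19.2% and 45.1%.

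The member genes of oxygen sensing rose unequally. Hif1a, the gene of the regulated subunit, measured 70.8, 69.2 and 57.3 CPM in senescent libraries, against 50.5, 50.6 and 50.6 CPM in quiescent libraries, a modest log2 fold change of 0.38 ± 0.072 SE (edgeR adjusted p = 5.79e-04). This call did not hold with library totals (0.077, edgeR adjusted p = 0.414). HIF-1α is controlled mainly through its protein, which these libraries do not show.

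Egln1 encodes PHD2, the main HIF prolyl hydroxylase, and Egln3 encodes PHD3, itself a HIF target. Egln1 measured 32.0, 30.9 and 24.9 CPM in senescent libraries, against 13.0, 13.2 and 13.1 CPM in quiescent libraries (log2 fold change 1.16 ± 0.085 SE). Egln3 (chromosome 12, 54178981 to 54203860) measured 10.9, 11.0 and 10.7 CPM in senescent libraries, against 0.706, 0.675 and 0.708 CPM in quiescent libraries. It rose 15.6-fold, the steepest rise of the 36 (log2 fold change 3.96 ± 0.076 SE, edgeR adjusted p = 1.98e-11), and stood at rank 169 of 14065 tested genes by fold change. Egln3 made up 33.6% ± 2.8 of the pair per kilobase in senescent and 6.68% ± 0.20 in quiescent libraries. Egln1 thus remained the more abundant transcript of the pair in both groups. Egln2, a HIF prolyl hydroxylase gene outside the members, fell (log2 fold change -0.41 ± 0.050 SE). It averaged 15.4 CPM in senescent and 20.5 CPM in quiescent libraries.

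Among the 10 member genes that are HIF targets outside glycolysis, Ankrd37, Bnip3 and Ndrg1 had the highest fold changes. Bnip3, a mitophagy receptor gene, measured 22.4, 24.1 and 21.6 CPM in senescent libraries, against 3.42, 3.20 and 3.42 CPM in quiescent libraries (log2 fold change 2.76 ± 0.063 SE). Bnip3 shares 504 of its 2265 exon bases with Gm45507 on the other strand, a gene absent from the gene table, so part of its counts is uncertain. Ankrd37, an ankyrin repeat gene often used as a readout of HIF, had 139, 145 and 107 counts in senescent and 15, 25 and 21 counts in quiescent libraries (log2 fold change 2.86 ± 0.22 SE). It shares 349 of its 1539 exon bases with Lrp2bp on the other strand, whose level was 0.127 CPM in senescent and 0.119 CPM in quiescent libraries. Ndrg1, a stress-responsive gene, measured 57.1, 59.4 and 69.2 CPM in senescent libraries, against 13.2, 13.6 and 12.6 CPM in quiescent libraries (log2 fold change 2.24 ± 0.074 SE).

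The collagen prolyl 4-hydroxylase subunits, which stabilise the collagen triple helix, also rose unequally. P4ha2 measured 46.0, 49.4 and 39.4 CPM in senescent libraries, against 15.6, 16.0 and 16.1 CPM in quiescent libraries (log2 fold change 1.497 ± 0.075 SE). P4ha1 measured 104, 106 and 96.4 CPM in senescent libraries, against 56.6, 57.7 and 56.6 CPM in quiescent libraries (log2 fold change 0.84 ± 0.050 SE). The log2 ratio of P4ha2 to P4ha1 counts was -1.19 ± 0.10 in senescent and -1.84 ± 0.025 in quiescent libraries. Rises were also found for Ddit4 (1.04 on the log2 scale), which encodes the mTORC1 inhibitor REDD1, and for Mxi1 (0.86), whose protein opposes Myc. The histone demethylase gene Kdm3a rose least (0.50) and with library totals no longer passed (0.20, edgeR adjusted p = 0.0727).

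Both exceptions in this group are textbook HIF targets. Adm, which encodes the vasodilator peptide adrenomedullin (chromosome 7, 110627661 to 110629820), measured 26.6, 25.5 and 29.4 CPM in senescent libraries, against 50.6, 49.7 and 49.0 CPM in quiescent libraries. The groups did not overlap, and Adm fell by 0.87 on the log2 scale (± 0.057 SE, edgeR adjusted p = 7.08e-08), 1.83-fold lower in senescent libraries. Car9, the carbonic anhydrase IX gene and a common tumour marker of hypoxia, had 48, 31 and 52 counts in senescent and 39, 52 and 35 counts in quiescent libraries. These groups overlapped in CPM, and the log2 fold change of 0.23 ± 0.20 (SE) did not pass (edgeR adjusted p = 0.312). Car9 was near the lower limit of the measured range, at 0.444 ± 0.086 CPM in senescent and 0.379 ± 0.055 CPM in quiescent libraries, and its estimate was -0.06 with library totals.

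The choice between paralogs was compared within each library by the log2 ratio of their counts, which does not depend on library scaling. In 9 of the 10 pairs the 3 senescent ratios did not overlap the 3 quiescent ones. Each had the smallest two-sided p that an exact permutation test of 3 against 3 can give (p = 0.1, adjusted p = 0.111 over the 10 pairs), so no pair could pass 0.05. Single genes did not overlap in CPM in 78.3% of all tested genes. How often ratios of other gene pairs separate was not measured, so the 9 pairs are not set apart by this count. The largest shifts were those of Slc16a3 to Slc16a1 (3.14), Egln3 to Egln1 (2.81), Pfkm to Pfkl (-1.85), Pfkfb4 to Pfkfb3 (-1.81), Aldoc to Aldoa (-1.66) and Eno2 to Eno1 (-1.10). Smaller shifts were found for Hk2 to Hk1 (0.74), P4ha2 to P4ha1 (0.65) and Slc2a3 to Slc2a1 (0.38). Pfkp to Pfkl shifted by -0.27 with overlapping groups (exact permutation p = 0.2, adjusted p = 0.2).

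**Figure D4:**
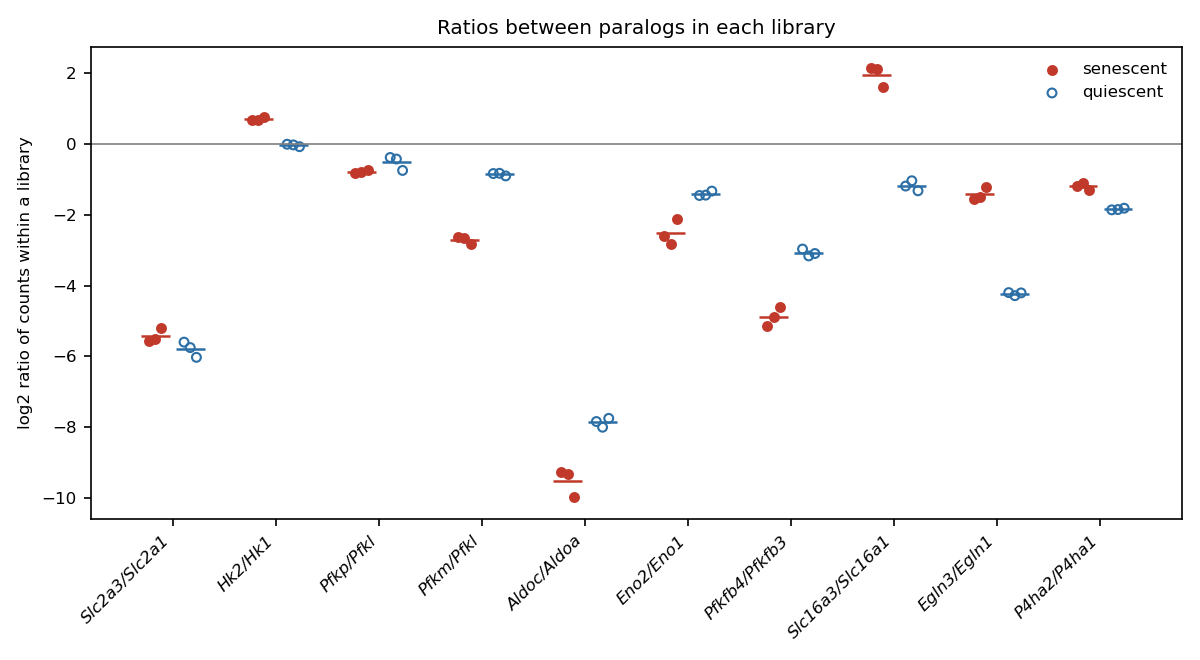
Log2 ratio of counts of 2 paralogs within each library (0.5 added to each count), filled points for the 3 senescent and open points for the 3 quiescent libraries, with lines at the group means. Slc16a3 to Slc16a1 crosses 0, at 1.96 in senescent and -1.18 in quiescent libraries, and Pfkp to Pfkl is the only pair whose groups overlap.

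Genes around the pathway were counted in lists, to be read against the 36.7% of all tested genes that rose and the 37.8% that fell. Of 35 other HIF targets tested, 25 rose and 5 fell, with a median log2 fold change of 0.89. Pgf, the placental growth factor gene, averaged 18.9 CPM in senescent and 0.764 CPM in quiescent libraries (log2 fold change 4.63 ± 0.094 SE), the highest of these targets. Selenbp1, a selenium-binding protein gene, averaged 1.202 CPM in senescent and 14.5 CPM in quiescent libraries (log2 fold change -3.61 ± 0.14 SE), the lowest. Of 15 genes of HIF subunits and regulators, 4 rose and 5 fell, with Cited2, which competes with HIF for a coactivator, at 1.85 and Arnt, the constant subunit, at -0.47.

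Of 16 other glycolysis isozymes and transporters tested, 6 rose and 7 fell, shares near those of all tested genes, from Bpgm (1.41), for bisphosphoglycerate mutase, to Eno3 (-1.89), for muscle enolase. Of 12 genes of pyruvate entry into mitochondria, 4 rose and 5 fell, with Pdhb, a pyruvate dehydrogenase subunit, at 0.66 and Pdk2 at -0.56. Of 7 pentose phosphate genes, 4 rose and none fell, Taldo1 (transaldolase) most with 1.53. Of 9 gluconeogenesis and glycogen genes, 2 rose and 5 fell, with the glycogen branching enzyme Gbe1 at 1.56 and the phosphorylase Pygb at -1.01. The 2 that rose are also counted among the other HIF targets. Of 12 genes of the Myc and Max network, in which Mxi1 acts, 6 rose and 4 fell, with Myc at 1.37 and Mxd3 at -2.35.

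**Figure D5:**
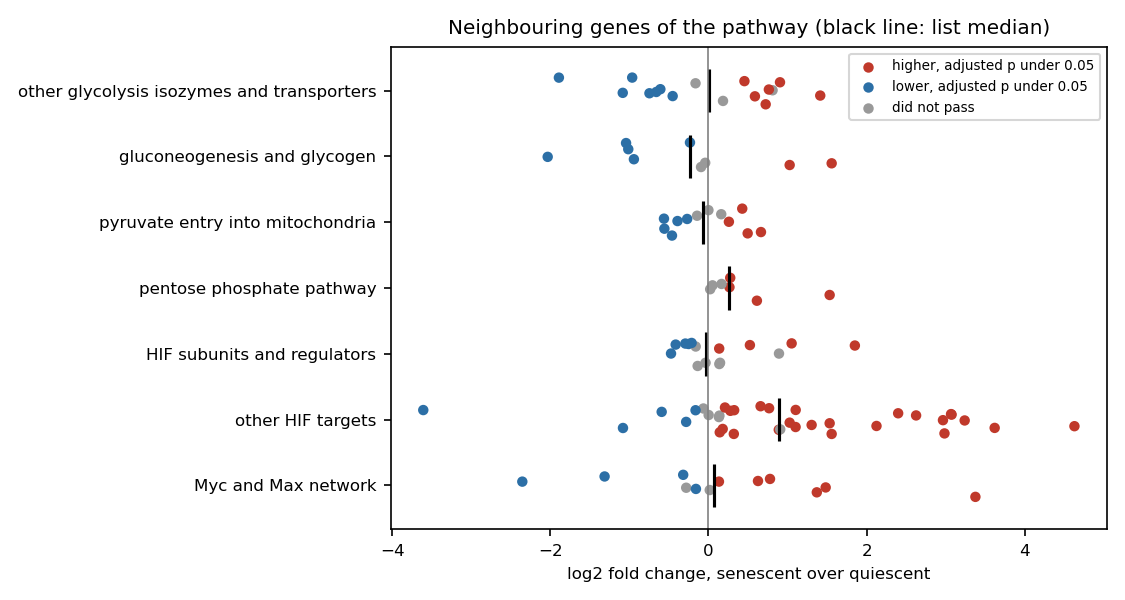
Log2 fold change, senescent over quiescent, of tested genes in 7 lists around the pathway, coloured by whether they passed at an adjusted p under 0.05 in edgeR, with a black line at each list's median. The other HIF targets have a median of 0.89, while the medians of the remaining lists lie between -0.23 and 0.27.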

How the data were processed

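For 6 libraries the authors deposited whole-number raw counts by gene symbol, and a repeat table that was not used here. The submitters' processing notes name mm10, edgeR 3.32.1 and limma 3.46.0 without a role. Which aligner, counter and annotation were used, and how strand and multiply placed reads were treated, the sources used here do not give. Library preparation kept strand, per the labels' protocols, with paired reads of 100 bases.

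All genes entered a test on counts in edgeR 4.0.16 under R 4.3.3 (low counts removed by filterByExpr at a minimum of 10, TMM scaling, robust quasi-likelihood fit, Benjamini-Hochberg adjustment, threshold 0.05). Each standard error is the absolute log2 estimate over the root of its F statistic. CPM use the TMM-scaled total of the filtered genes, ribosomal rows included, so they look low. Levels per kilobase divide CPM by the merged exon length of GENCODE M21, which matched 24366 of 25239 symbols. Paralog ratios had 0.5 added to each count and an exact two-sided permutation test. Promoter windows came from RefSeq. Groups and replicate numbers came from sample titles. The test was tried on simulated counts. All 36 members were named by rule, and of the other lists the extreme genes in either direction among those called whose average log2 CPM was 0 or more. Egln2 was named besides, as a paralog of Egln1 and Egln3. The members, lists and tests were chosen with earlier results of these data known. Alternatives were DESeq2 1.42.0, limma-voom (limma 3.58.1), other scalings, filters and thresholds, a block for replicate number, and leaving out single libraries. No samples were left out of the main test, and depth covers counting error only, since PCR reads without molecular identifiers are not independent molecules. The libraries of a group differed by more than counting noise, so each counted as 1 sample.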

Additional observations from a re-analysis of the deposited data

How the results depend on the processing

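Of the 36 genes, 22 kept their call under all 15 alternatives. Of these, Car9, which did not pass in any, changed sign under library totals (-0.062). Under library totals without TMM, which moved the median of all genes to -0.32, 27 of the 36 rose and 5 fell, and 2952 of all genes rose and 7435 fell. Under upper quartile scaling (median -0.12) 29 rose and 4 fell, beside 4474 and 6005 of all genes. Against a 2-fold threshold tested directly with glmTreat, 21 rose and 0 fell, and 1154 of all genes rose and 1309 fell. That threshold asks for more than a difference from 0, and Adm and Pfkfb4 have estimates under 2-fold. In DESeq2, 30 rose and 2 fell, beside 5163 and 4758 of all genes. In limma-voom 29 rose and 2 fell, beside 5149 and 5318. Deviations from the group means correlated with r of -0.010 to 0.058 between same-numbered libraries and -0.101 to 0.056 between differently numbered ones. With 3 libraries per group this cannot settle whether the numbers of the labels pair the libraries. With the replicate block 30 of the 36 rose and 2 fell, beside 5124 and 5281 of all genes. With each library left out, 29 or 30 rose and 2 or 3 fell, beside 4860 to 5331 and 4901 to 5416 of all genes. The 10 paralog differences kept their direction under each alternative tried, including 5 added to each count and Eno1b added to Eno1, the last chosen after seeing the data. Family shares moved with the choice of length for 8 genes and kept the sign of their difference. The counts of Aldoc, Car9, Ankrd37 and Slc2a3 are low and limit their precision.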
